A study of Mus musculus with 10 samples.

Results

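The 10 genes described here encode enzymes of serine synthesis, folate-dependent one-carbon transfer and sarcosine oxidation: Phgdh, Psat1, Psph, Shmt1, Shmt2, Mthfd1, Mthfd1l, Mthfd2, Aldh1l2 and Sardh. They were found by symbol among the 46957 loci of each sample table, and every one of the 10 had a locus of its own. The group was assembled because Sardh was higher after treatment in these samples, so the treated and control values of Sardh are given as a description with no test. The other 9 genes belong to the same pathways and were also chosen with earlier results of these data known, so the count of those that fell is a description too.

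The RNA came from macrophages sorted out of 4T1 tumours, a mouse mammary carcinoma line. In BALB/cJ mice, 100000 of its cells were placed in the fat pad of the mammary gland. The 5 control samples came from mice given vehicle (PBS). The other 5 came from mice given 1 mg/kg of JHU083 from day 7 to day 13, and both groups were harvested and sorted on day 14. JHU083 is converted in the body to 6-Diazo-5-oxo-L-norleucine, which resembles glutamine and inactivates enzymes that use it. The gate kept live CD45+ CD11b+ F4/80+ cells and left out cells with CD8, Ly6C or Ly6G. Strain, tumour and gate were the same in both groups. The labels do not say whether each sample was 1 mouse or a pool, so the p-values measure the spread between these samples.

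Serine is made from a glycolytic intermediate in successive steps by PHGDH, PSAT1 and PSPH, and the PSAT1 step takes its amino group from glutamate, which cells obtain largely from glutamine. Serine hydroxymethyltransferases (SHMT1 in the cytosol, SHMT2 in mitochondria) then move a carbon from serine to tetrahydrofolate and release glycine. The folate-bound carbon is oxidised to formate in mitochondria by MTHFD2 and MTHFD1L and reused in the cytosol by MTHFD1 for purine and thymidylate synthesis, while ALDH1L2 oxidises it to carbon dioxide. SARDH, a mitochondrial flavoenzyme best known from liver, demethylates sarcosine to glycine and passes the released carbon to tetrahydrofolate.

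Libraries held 11147870 to 15740701 fragments, and at this depth 3 fragments in 1 library correspond to 0.196 to 0.261 CPM, fragments scaled to a common library size after TMM scaling. Of the 10 libraries, 3 vehicle and 2 JHU083 ones had ribosomal RNA-like loci listed at 0. The macrophage markers Adgre1, Csf1r, Itgam, Cd68, Mertk, Fcgr1, C1qa and Lyz2 were abundant in every sample and summed to 14274 to 17446 CPM in vehicle and 18594 to 24581 CPM in JHU083 samples, with 4 of the 8 called higher and 0 lower. Markers of tumour or mammary epithelium were also present: the 10 genes summed to 309 to 680 CPM in vehicle and 107 to 226 CPM in JHU083 samples, and all 9 that could be tested fell. Beside these and the counts below, 18.3% of all tested loci were called lower and 18.4% higher. Fibroblast markers summed to 103 to 226 against 25.9 to 115 CPM (5 of 7 fell, 0 rose), endothelial markers to 122 to 210 against 34.0 to 82.3 CPM (1 of 3 tested, Pecam1, fell and carried most of the sum) and neutrophil markers to 19.9 to 28.7 against 2.74 to 11.0 CPM (2 of 2 tested fell). The neutrophil sum was mostly S100a8 and S100a9, the 2 that fell. Below the filter, Mpo had 7 fragments over all vehicle and 25 over all JHU083 samples, and Elane 2 and 21. Ngp had 57 and 1 and Camp 10 and 2, and Ly6g had at most 2 fragments in any sample. The T cell list summed to 14.3 to 17.8 CPM in vehicle and 27.0 to 43.3 CPM in JHU083 samples, nearly all of it Cd4, which rose, whereas Cd3e, Cd3d, Cd3g, Cd8a and Trac stayed below the filter. B cell markers summed to at most 0.603 CPM in any sample. NK cell markers summed to 10.9 to 14.9 against 7.06 to 11.9 CPM and dendritic cell markers to 6.11 to 8.46 against 5.89 to 14.3 CPM, with 0 calls in either list, and eosinophil markers summed to 3.6 to 9.88 against 6.56 to 16.7 CPM with 1 of 3 tested, Siglecf, called higher. The NK cell sum was mostly Klrb1c, whose locus lists further symbols, while Ncr1 and Gzma did not pass the filter. These samples are bulk RNA, in which fewer cells of a type and less RNA per cell cannot be told apart.

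After JHU083 the transcripts of the 3 serine synthesis enzymes, of both serine hydroxymethyltransferases and of 2 of the 4 folate interconversion enzymes were lower, while that of Sardh was higher. Of the 9 members that passed the filter on low counts, Sardh was higher and 7 fell: Phgdh, Psat1, Psph, Shmt1, Shmt2, Mthfd1 and Mthfd1l (adjusted p under 0.05, edgeR quasi-likelihood F-test, Benjamini-Hochberg over 12501 loci). Mthfd2 did not pass the test, and Aldh1l2, with at most 19 fragments in any sample, did not pass the filter. Over all tested loci, 18.3% were called lower and 18.4% higher, and the median log2 fold change was 0.01. In 5 members the JHU083 samples lay wholly below the vehicle samples, which held for 11.1% of tested loci. They lay wholly above in Sardh, where this contrast chose the group and nothing is read from it, and in Aldh1l2, which is not among the tested loci, of which 11.2% lay wholly above. Among tested loci 2293 were lower and 2296 higher. With scaling by library size alone the split was 3141 lower and 1564 higher, a shift of -0.08 in the median, under which each of the 9 tested members kept its direction.

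**Figure D1:**
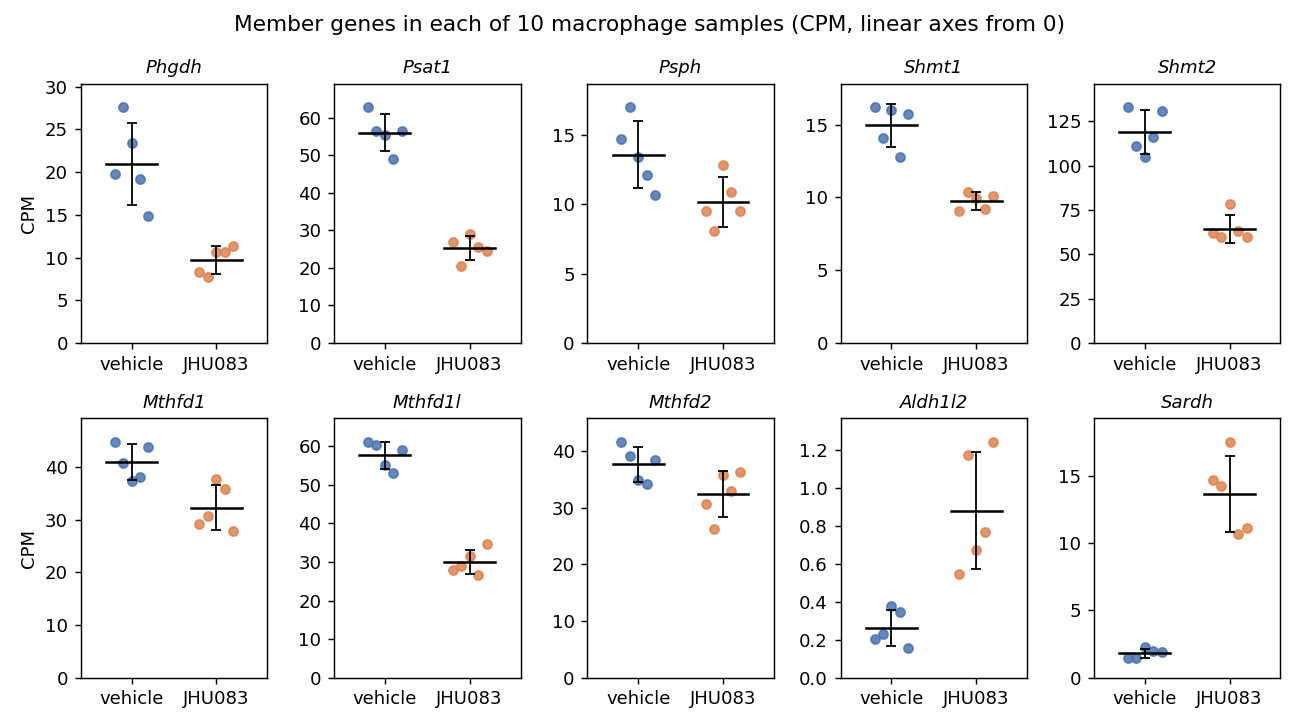
CPM of each member gene (linear vertical axes from 0) in 5 vehicle and 5 JHU083 samples; points are samples, horizontal lines group means and bars SD. The groups do not overlap for Phgdh, Psat1, Shmt1, Shmt2, Mthfd1l, Aldh1l2 and Sardh, and they overlap for Psph, Mthfd1 and Mthfd2.

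The promoters of 9 members, 10 promoters with 2 for Psat1, were found in the RefSeq table of build GRCm38.p6, which gives 250 bases before and 50 after each start. Stretches before the start that lie in no GENCODE M21 exon are printed below for Sardh, the member that was higher, and for Phgdh, Psat1 and Shmt2, which are among those that fell. All 4 genes are on the minus strand, and the stretches are chr2:27247415-27247553, chr3:98339991-98340219, chr19:15925060-15925309 and chr10:127522445-127522694. Those of Sardh and Psat1 lie inside the span that GENCODE gives the gene. Capitals mark CCAAT, the NF-Y box; GGGCGG, the GC box, was searched likewise on both strands and is not in these 4 stretches. The stretch of the other Psat1 promoter (chr19:15924623-15924863), not printed, holds GGGCGG and no CCAAT.
Sardh: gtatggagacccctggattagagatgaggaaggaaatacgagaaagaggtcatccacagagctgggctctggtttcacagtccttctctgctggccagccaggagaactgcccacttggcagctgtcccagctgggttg
Phgdh: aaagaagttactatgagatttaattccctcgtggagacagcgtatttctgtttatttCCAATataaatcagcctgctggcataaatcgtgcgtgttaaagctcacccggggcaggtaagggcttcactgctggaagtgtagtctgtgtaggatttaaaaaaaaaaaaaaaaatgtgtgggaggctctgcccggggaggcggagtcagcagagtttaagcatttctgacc
Psat1: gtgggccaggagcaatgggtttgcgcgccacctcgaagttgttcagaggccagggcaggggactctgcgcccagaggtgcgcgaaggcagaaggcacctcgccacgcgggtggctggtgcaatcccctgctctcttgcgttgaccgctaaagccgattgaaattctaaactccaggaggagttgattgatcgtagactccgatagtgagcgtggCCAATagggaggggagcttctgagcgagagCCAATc
Shmt2: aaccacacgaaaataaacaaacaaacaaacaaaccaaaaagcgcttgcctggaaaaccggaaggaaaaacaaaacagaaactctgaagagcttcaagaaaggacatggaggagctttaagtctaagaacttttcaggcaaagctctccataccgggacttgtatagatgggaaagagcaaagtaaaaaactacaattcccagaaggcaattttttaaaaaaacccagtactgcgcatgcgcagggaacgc
Over the whole 300-base windows, Sardh had 4 CpG sites, fewer than any other member promoter (8 to 30), and the median over all promoters was 7. CCAAT was in 6 of the 10 member promoters, those of Phgdh, Psat1, Psph, Shmt1, Mthfd1 and Mthfd2, and in 37.4% of 32851 promoters. GGGCGG was in 5 of 10 member promoters and in 35.7% of all, and neither motif was in the Sardh window. TGATGNAA, the core of the element that ATF4 binds, was in 0 of 10 member promoters and 3.97% of all, and CACGTG, the E-box that MYC binds, in 0 of 10 and 7.15%. The motifs were chosen with the values known, they do not overlap one another, and a missing match refers to these letters in these windows alone.

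Both of the first enzymes of serine synthesis fell to under 0.5 of their vehicle level, and the last enzyme fell less. Phgdh, the NAD-dependent dehydrogenase that commits 3-phosphoglycerate to serine, is at chr3:98313170-98339990 on the minus strand (protein coding, as are all 10 members; GRCm38, GENCODE M21). Its levels in vehicle samples 1 to 5 were 19.8, 27.6, 23.4, 19.2 and 14.9 CPM, and in JHU083 samples 1 to 5 they were 8.25, 7.68, 10.6, 10.7 and 11.3 CPM. The lowest vehicle sample was above the highest JHU083 sample. The mean fell from 21.0 ± 4.77 CPM (SD, n = 5) to 9.7 ± 1.61 CPM (SD, n = 5), which is -1.11 ± 0.16 on the log2 scale (SE; edgeR adjusted p = 0.000161). The processed pseudogene Phgdh-ps1 had 0 or 1 fragment per sample.

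Psat1, the glutamate-dependent aminotransferase (chr19:15904678-15947337, minus strand), had groups far apart. Vehicle samples held 62.8, 56.5, 55.4, 49.1 and 56.5 CPM, and JHU083 samples 26.8, 20.6, 28.9, 25.5 and 24.6 CPM. Every JHU083 sample was more than 20 CPM below every vehicle sample. The log2 fold change was -1.15 ± 0.10 (SE; edgeR adjusted p = 3.02e-06), with means of 56.1 ± 4.87 and 25.3 ± 3.08 CPM (SD, n = 5 each). Psph, the phosphatase that releases serine (chr5:129765558-129787449, minus strand), fell by 0.42 ± 0.15 on the log2 scale (SE; edgeR adjusted p = 0.0375). Its vehicle samples held 14.7, 17.0, 13.4, 12.1 and 10.7 CPM and its JHU083 samples 9.48, 8.09, 12.8, 10.9 and 9.49 CPM. The groups overlapped, since JHU083 sample 3 was above vehicle samples 4 and 5. The Psph call was lost when vehicle sample 1, 2 or 3 or JHU083 sample 1, 2, 4 or 5 was left out (edgeR adjusted p from 0.0522 to 0.102). It was also lost with the replicate number as a block (edgeR adjusted p = 0.0829). An exon of Psph overlaps one of Cct6a, whose reads unstranded counting may not separate.

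Per transcript length, Psat1 therefore lost ground to Psph. The ratio of their deposited FPKM, which scales fragments by transcript length and library size, was 2.42, 2.07, 2.12, 2.53 and 3.04 in vehicle samples and 1.49, 1.52, 1.34, 1.56 and 1.57 in JHU083 samples, with no overlap (means 2.44 ± 0.388 and 1.5 ± 0.0954, SD, n = 5 each). The ratio of Psat1 to Phgdh was 1.91 ± 0.458 in vehicle and 1.76 ± 0.295 in JHU083 samples (SD, n = 5 each), and those groups overlapped. These and the ratios below are descriptions with no test.

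The mitochondrial and the cytosolic serine hydroxymethyltransferase both fell. Shmt2, the mitochondrial enzyme and the most abundant member per length (chr10:127517123-127522444, minus strand), held 133, 111, 105, 116 and 131 CPM in vehicle samples and 61.8, 59.8, 78.3, 62.9 and 59.6 CPM in JHU083 samples. JHU083 sample 3 stood above the other treated samples but below every vehicle sample. The mean fell from 119 ± 12.2 to 64.5 ± 7.84 CPM (SD, n = 5 each), which is -0.89 ± 0.10 on the log2 scale (SE; edgeR adjusted p = 1.58e-05). Shmt1, the cytosolic enzyme (chr11:60788104-60811718, minus strand), held 16.2, 14.1, 16.0, 12.8 and 15.7 CPM in vehicle samples and 9.07, 10.4, 9.99, 9.17 and 10.1 CPM in JHU083 samples. The groups did not overlap, and treated samples lay within a narrow band. The log2 fold change of Shmt1 was -0.62 ± 0.10 (SE; edgeR adjusted p = 0.000417; means 15.0 ± 1.47 and 9.73 ± 0.575 CPM, SD, n = 5 each). On the deposited FPKM the Shmt1 difference was -0.38 with an adjusted p of 0.144 (limma, pseudocount 0.1), a change of scale taken up below. Exons of Shmt1 overlap Smcr8 and those of Shmt2 overlap Ndufa4l2, and reads there may not be separated by unstranded counting.

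The enzymes that carry the folate-bound carbon to formate did not move alike. Mthfd1l, the mitochondrial synthetase that releases formate (chr10:3973118-4167081, plus strand), held 61.1, 60.4, 55.0, 53.1 and 58.9 CPM in vehicle samples and 28.0, 28.9, 31.5, 26.6 and 34.6 CPM in JHU083 samples. The groups were far apart, and the mean fell from 57.7 ± 3.51 to 29.9 ± 3.17 CPM (SD, n = 5 each; log2 fold change -0.95 ± 0.09, SE; edgeR adjusted p = 4.85e-06). Mthfd2, the mitochondrial dehydrogenase and cyclohydrolase that acts just before it (chr6:83305691-83325908, minus strand), held 41.6, 39.2, 34.9, 34.2 and 38.4 CPM in vehicle samples and 30.7, 26.3, 35.8, 33.0 and 36.3 CPM in JHU083 samples. The groups overlapped, and the log2 fold change of -0.22 ± 0.10 (SE, 95% interval -0.41 to -0.03 before any adjustment) did not pass after adjustment (edgeR adjusted p = 0.0958). Mthfd2 passed with scaling by library size alone (-0.3, edgeR adjusted p = 0.0221) and without JHU083 sample 3 (-0.25, edgeR adjusted p = 0.0448).

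The FPKM ratio of Mthfd1l to Mthfd2 showed this within each sample. It was 0.806, 0.842, 0.86, 0.855 and 0.846 in vehicle samples and 0.482, 0.603, 0.484, 0.442 and 0.504 in JHU083 samples. Vehicle samples lay within a narrow band above every treated sample, with means of 0.842 ± 0.0212 and 0.503 ± 0.0601 (SD, n = 5 each). The FPKM ratio of Shmt2 to Mthfd2 was 2.83 ± 0.223 in vehicle and 1.75 ± 0.259 in JHU083 samples (SD, n = 5 each), also without overlap. A ratio of this kind shows unequal change, not which of the 2 genes moved.

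Mthfd1, the cytosolic enzyme that combines the synthetase, cyclohydrolase and dehydrogenase activities (chr12:76255298-76319803, plus strand), fell by 0.35 ± 0.10 on the log2 scale (SE; edgeR adjusted p = 0.014). It held 44.8, 40.8, 37.3, 38.1 and 43.9 CPM in vehicle samples and 29.3, 30.8, 37.7, 35.8 and 27.9 CPM in JHU083 samples. The groups overlapped at JHU083 sample 3, which was just above vehicle sample 3, and the call held when any single sample was left out. It did not hold in the smaller subsets of samples given further on or with the replicate number as a block (edgeR adjusted p = 0.0572). Aldh1l2, the mitochondrial formyltetrahydrofolate dehydrogenase (chr10:83487450-83534140, minus strand), was close to the limit of detection. It had 3, 3, 5, 4 and 2 fragments in vehicle samples and 8, 17, 9, 10 and 19 in JHU083 samples, or 0.263 ± 0.0952 and 0.878 ± 0.309 CPM (SD, n = 5 each). In CPM every treated sample was above every vehicle sample, but in deposited FPKM the groups overlapped, with vehicle sample 2 (0.143 FPKM) above JHU083 samples 1, 3 and 4 (0.102, 0.105 and 0.135 FPKM). From 17 fragments in all vehicle samples and 63 in all JHU083 samples, the level was 3.41-fold higher in JHU083, with an exact 95% interval of 1.97 to 6.22 that covers counting error only. In a fit with no filter the log2 fold change of Aldh1l2 was 1.72 (edgeR adjusted p = 0.00951), whereas on FPKM with pseudocount 0.1 it was 0.64 (limma adjusted p = 0.231). Exons of Mthfd1 overlap Gm47525 and those of Aldh1l2 overlap D10Wsu102e.

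Sardh (chr2:27188393-27248337, minus strand) was low in vehicle samples and several-fold higher in treated ones. It had 22, 19, 30, 23 and 24 fragments in vehicle samples and 215, 207, 235, 140 and 169 in JHU083 samples. In CPM these are 1.49, 1.45, 2.26, 2.0 and 1.88 for vehicle and 14.7, 14.2, 17.5, 10.7 and 11.1 for JHU083. Vehicle samples were all under 3 CPM and treated samples all over 10 CPM. The mean was 1.82 ± 0.345 CPM in vehicle and 13.6 ± 2.81 CPM in JHU083 samples (SD, n = 5 each), 7.5-fold higher, with a fitted log2 fold change of 2.91 ± 0.18 (SE). By that fold change Sardh stood at place 8 from the top of the 12501 tested loci, and the values of this contrast are those that chose the group. The antisense gene Sardhos, which overlaps Sardh exons, had 0 to 7 fragments per sample.

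The fold of Sardh depended on how the deposited values treat transcript length. On the deposited FPKM it was 0.731, 1.26, 1.27, 0.894 and 2.1 in vehicle samples and 4.6, 6.69, 5.22, 2.87 and 4.02 in JHU083 samples. The groups again did not overlap, but the ratio of the means (4.68 ± 1.42 over 1.25 ± 0.527 FPKM, SD, n = 5 each) was 3.74, against 7.5 in CPM. Dividing the count by the FPKM, and then by a factor per sample, gives the transcript length that the deposited values imply in each sample. The factor was the median of count over FPKM per kb of annotated length, taken from up to 2002 genes with a single GENCODE transcript. For Sardh that length was 2.01, 1.14, 1.76, 2.2 and 0.88 kb in vehicle samples and 3.17, 2.12, 3.3, 3.68 and 2.73 kb in JHU083 samples. All treated samples except sample 2 were above every vehicle sample, and the means were 1.6 and 3.0 kb. GENCODE M21 lists 10 Sardh transcripts of 352 to 4521 nt, of which Sardh-202 (4521 nt) and Sardh-201 (2744 nt) are longest. A vehicle sample had at most 30 Sardh fragments, so the length there rests on few reads. The implied length of Shmt1 also varied, from 1.69 to 1.89 kb in vehicle and from 1.06 to 2.19 kb in JHU083 samples, whereas that of Shmt2 was 2.25 kb in all 10 samples and that of Mthfd1 3.34 or 3.35 kb.

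**Figure D2:**
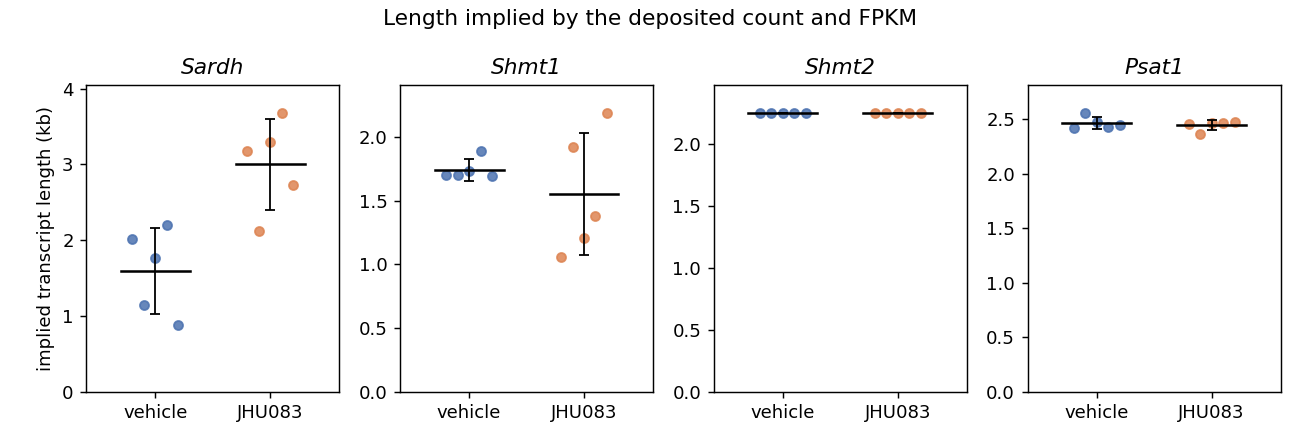
Transcript length in kb implied by the deposited count and FPKM (linear axes from 0) for Sardh, Shmt1, Shmt2 and Psat1 in each sample; lines are group means and bars SD (n = 5). Sardh averages 1.6 kb in vehicle and 3.0 kb in JHU083 samples, Shmt1 spreads from 1.06 to 2.19 kb among JHU083 samples, and Shmt2 stays at 2.25 kb.

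Per length, the order of the members differed between the groups. In vehicle samples Shmt2 led with 52.3 ± 5.19 FPKM, followed by Psat1 (22.4 ± 2.01), Mthfd2 (18.5 ± 1.48), Mthfd1l (15.5 ± 0.928), Phgdh (12.2 ± 2.79), Mthfd1 (12.1 ± 0.961), Psph (9.37 ± 1.56) and Shmt1 (8.5 ± 1.12), each mean FPKM with SD and n = 5. Psat1 and Mthfd2 overlapped, Phgdh overlapped Mthfd1l, Mthfd1, Psph and Shmt1, and Psph overlapped Shmt1. Sardh (1.25 ± 0.527 FPKM) and Aldh1l2 (0.0734 ± 0.0437 FPKM) were below all of these. In JHU083 samples Shmt2 still led with 28.4 ± 3.29 FPKM and Mthfd2 followed with 16.4 ± 2.26 FPKM, above Psat1 (10.2 ± 1.07), Mthfd1 (9.56 ± 1.22) and Mthfd1l (8.18 ± 0.987), which overlapped one another. Psph (6.87 ± 1.13), Shmt1 (6.63 ± 1.71), Phgdh (5.94 ± 1.14) and Sardh (4.68 ± 1.42) overlapped one another in FPKM, the first 3 of them also overlapped Mthfd1l and the first 2 Mthfd1, and Aldh1l2 was lowest at 0.174 ± 0.0843 FPKM. Mthfd2 thus stood apart from Psat1 in treated samples but not in vehicle samples, and the lowest vehicle value of Shmt1 (6.66 FPKM) was more than 3 times the highest of Sardh (2.1 FPKM).

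**Figure D3:**
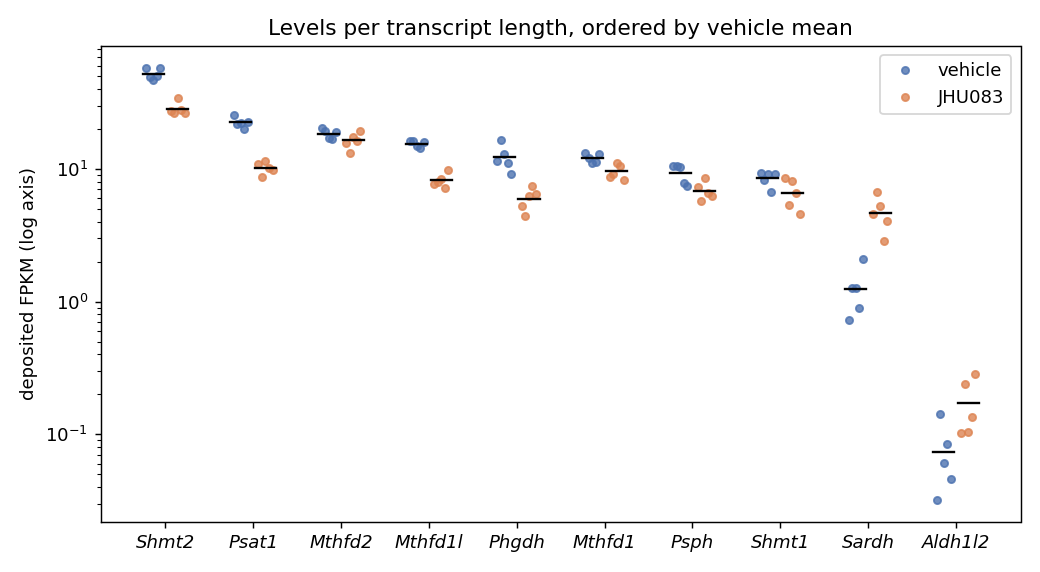
Deposited FPKM of the 10 members on a log axis, ordered by vehicle mean, with a point per sample (5 vehicle, 5 JHU083) and lines at group means. Shmt2 is highest in both groups, Mthfd2 passes Psat1, and Sardh in JHU083 samples reaches the range of Phgdh and Shmt1.

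Most of the other one-carbon genes showed no call, and those that fell included the thymidylate and purine steps. Of 50 further genes in 5 lists, 35 passed the filter, of which 8 fell, 5 rose and 22 were not called, with a median log2 fold change of 0.08. Their share of calls, 13 of 35, is near the 36.7% of all tested loci called in either direction. The number that rose was 3 without vehicle sample 1 or 2, 2 without JHU083 sample 4 and 1 without vehicle sample 4, and it was 3 with scaling by library size alone.

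Among genes of serine and glycine handling, 7 of 12 were tested, 2 fell and 0 rose (median -0.03). Sfxn1, the mitochondrial serine carrier, fell by 0.63 ± 0.07 on the log2 scale (SE; edgeR adjusted p = 2.10e-05), from 61.0 ± 3.02 to 39.3 ± 2.2 CPM (SD, n = 5 each), with no overlap. The other was Slc1a5, a transporter of glutamine and serine (-0.54 ± 0.10, SE; edgeR adjusted p = 0.000747). Sfxn3, a paralogue of Sfxn1, was at 0.13 and did not pass (edgeR adjusted p = 0.244). Slc1a5 and Sfxn3, like most further list genes below, were named after their values were seen.

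The genes around Sardh in choline and sarcosine breakdown were mostly at the limit of detection. Dmgdh, which encodes the dehydrogenase that supplies sarcosine from dimethylglycine, had 0 fragments in all 10 samples, which allows up to 0.261 CPM in a library, for counting error only. Pipox, a peroxisomal sarcosine oxidase, had at most 1 fragment in any sample. Gnmt, which makes sarcosine from glycine, had 1, 1, 2, 1 and 0 fragments in vehicle samples. In JHU083 samples it had 8, 3, 3, 3 and 2. That is 5 fragments over all vehicle and 19 over all JHU083 samples, and Gnmt did not pass the filter. Apart from JHU083 sample 1, no library exceeded the 3 fragments that a count of 0 allows. Of this list 5 of 11 genes were tested, 1 rose and 0 fell (median 0.19). The one that rose was Pdpr, a regulator of pyruvate dehydrogenase whose protein resembles SARDH and DMGDH (0.65 ± 0.19, SE; edgeR adjusted p = 0.0174). Without vehicle sample 4 its value was 0.57 with an edgeR adjusted p of 0.0516, and on the deposited FPKM it was 0.27 (limma adjusted p = 0.523). The electron acceptors of SARDH, encoded by Etfa and Etfb, and their oxidoreductase Etfdh had log2 fold changes of 0.13, -0.05 and 0.19 and did not pass (edgeR adjusted p = 0.19, 0.748 and 0.0814). The loci of Etfb and Etfdh list further symbols.

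Among genes of folate uptake and retention 6 of 7 were tested, with 1 lower and 1 higher (median 0.02, and -0.06 with scaling by library size alone). Fpgs, which adds glutamates to folate and shares its locus with a further symbol, fell by 0.55 on the log2 scale (edgeR adjusted p = 0.0133), and Ggh, which removes them, rose by 0.35 (edgeR adjusted p = 0.013). The transporters Slc19a1 (-0.09, edgeR adjusted p = 0.493), Slc46a1 (-0.08, 0.673) and Slc25a32 (0.30, 0.0907) and the macrophage folate receptor Folr2 (0.11, 0.371) did not pass. Folr2 was the most abundant gene of the list in CPM, at 176 ± 23.5 in vehicle and 191 ± 18.3 in JHU083 samples (SD, n = 5 each).

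Among genes that use folate-bound carbon 9 of 10 were tested, with 4 lower and 1 higher (median -0.1). Tyms, thymidylate synthase, fell by 0.99 ± 0.09 on the log2 scale (SE; edgeR adjusted p = 4.81e-06), from 33.2 ± 2.98 to 16.7 ± 1.15 CPM (SD, n = 5 each). Aldh1l1, the cytosolic counterpart of Aldh1l2, fell by 0.79 ± 0.13 (SE; edgeR adjusted p = 0.000305) at a locus that lists a second symbol. Its direction was opposite to the fragment counts of Aldh1l2, and the difference between them was not tested. The purine enzymes Atic (-0.51, edgeR adjusted p = 0.000747) and Gart (-0.37, edgeR adjusted p = 0.0114) fell, and Mthfsl rose (0.38, edgeR adjusted p = 0.0227). The Mthfsl call was lost with the replicate number as a block. Mthfd2l, a paralogue of Mthfd2, was at 0.12 ± 0.14 (SE; edgeR adjusted p = 0.503), with 5.59 ± 0.644 CPM in vehicle and 6.1 ± 0.633 CPM in JHU083 samples (SD, n = 5 each). In the methionine cycle 8 of 10 genes were tested, with 1 lower and 2 higher (median 0.03, and -0.05 with scaling by library size alone). Ahcy, adenosylhomocysteinase, fell by 0.93 ± 0.09 on the log2 scale (SE; edgeR adjusted p = 6.79e-06). Mat2a (0.20, edgeR adjusted p = 0.0295) and Mat2b (0.24, edgeR adjusted p = 0.0254), which make S-adenosylmethionine, rose. Neither passed with scaling by library size alone or with the replicate number as a block.

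**Figure D4:**
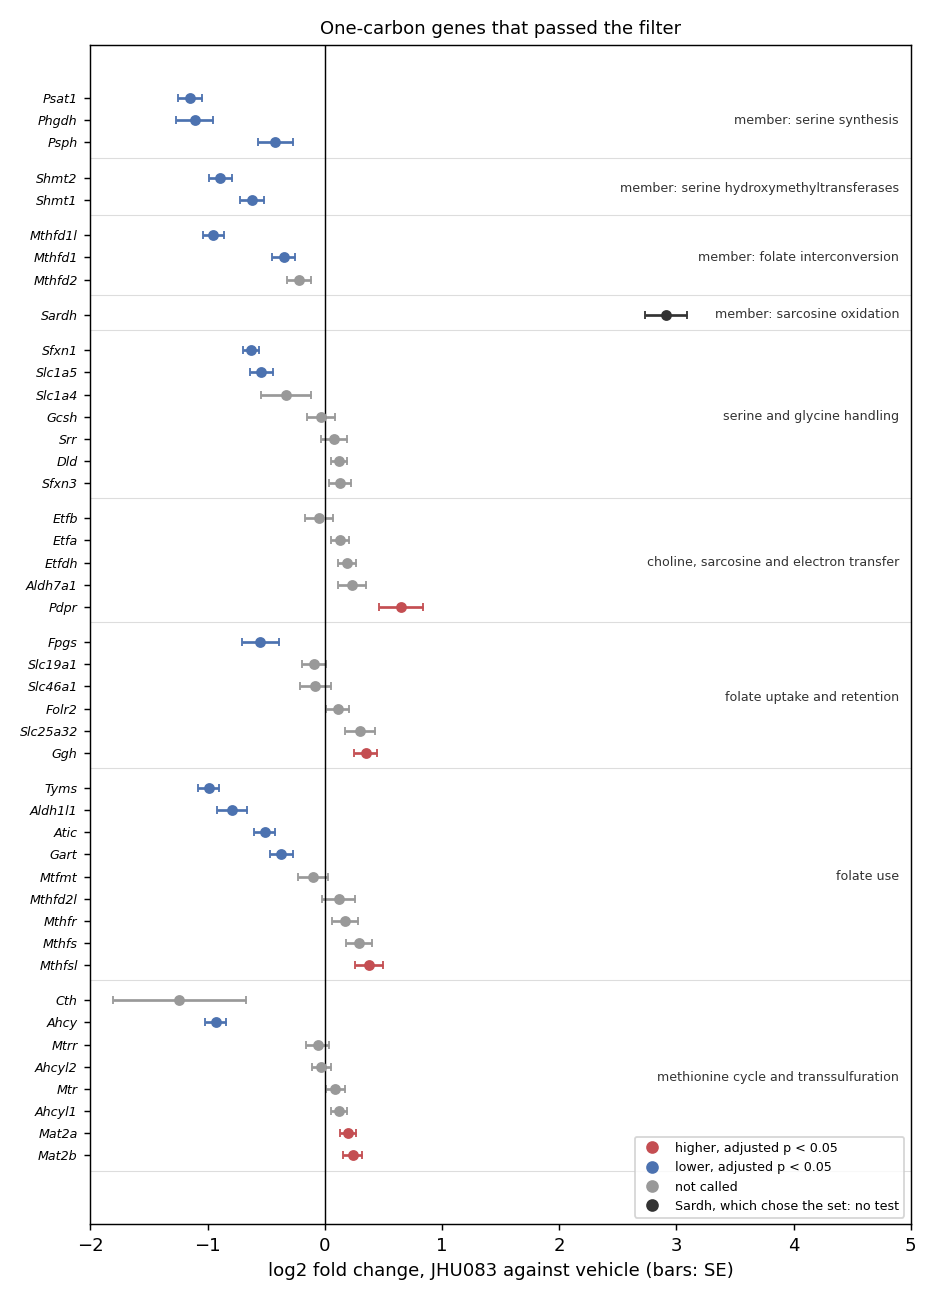
Log2 fold change (JHU083 against vehicle, horizontal axis, bars SE) of the 9 tested members and 35 other tested one-carbon genes, grouped by role and coloured by edgeR call; Sardh, in black, is shown with no test. Phgdh, Psat1, Shmt2, Mthfd1l, Tyms and Ahcy lie near -1, most other genes near 0 and Sardh at 2.91.

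Gene groups that share targets or timing with these enzymes are given beside them as values. Of 15 proliferation genes, which are expressed in dividing cells and with which Tyms is known to vary, 13 fell and 0 rose (median -1.18), led by Plk1 (-1.68, edgeR adjusted p = 4.09e-06), Cdc20 (-1.46, 1.98e-05), Ccnb2 (-1.42, 7.88e-07) and Birc5 (-1.27, 2.16e-05). Of 8 genes linked to MYC, a factor known to activate Shmt2 and serine synthesis, 6 fell and 0 rose (median -0.49), among them Cad (-1.06, edgeR adjusted p = 8.37e-07), Myc (-0.88, 0.000256) and Ldha (-0.80, 0.000236). Of 10 tested genes linked to ATF4, the stress factor known to activate Phgdh, Psat1, Shmt2 and Mthfd2, 4 rose and 0 fell (median 0.29): Atf4 (0.29, edgeR adjusted p = 0.0109), Atf5 (0.46, 0.00238), Ddit3 (0.34, 0.0224) and Nupr1 (0.50, 0.000356). The 4 of 10 called in that list is near the 36.7% of all tested loci called in either direction. All 4 were higher, and 18.4% of all tested loci were called higher. With scaling by library size alone 3 of these genes passed. For the other lists, 18.3% of all tested loci were called lower. A further gene of that list is not analysed here.

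The epithelial and proliferation sums were lower in JHU083 samples, as were the 7 members that fell. Summed epithelial markers were 435, 680, 597, 485 and 309 CPM in vehicle samples and 151, 184, 107, 226 and 137 CPM in JHU083 samples. Summed proliferation genes were 1139, 1015, 938, 978 and 1064 CPM in vehicle samples and 647, 578, 574, 537 and 529 CPM in JHU083 samples. Neither sum overlapped between the groups. Within the vehicle group Phgdh was highest in samples 2 and 3, which had the highest epithelial sums, and lowest in sample 5, which had the lowest. Within the JHU083 group Phgdh was highest in sample 5, whose epithelial sum was second lowest. Mthfd1 in vehicle samples had the same order as the proliferation sum, with sample 1 highest and sample 3 lowest. In JHU083 samples Mthfd1 was highest in sample 3 and lowest in sample 5, which also had the lowest proliferation sum. There 5 of 10 pairs of samples were in the order of that sum. Of 40 such orders looked at, 3 had at least 9 of 10 pairs of samples in the order of a sum, the vehicle orders above among them, and 2 had at most 1: Phgdh in JHU083 samples and Aldh1l2 in vehicle samples, both against the proliferation sum. The number of such orders that chance alone would give was not computed, so nothing is read from them. The part of epithelial cells or of dividing cells in the fall of the members was not tested. Sardh was higher in treated samples, in which the epithelial, endothelial and neutrophil sums were lower and the macrophage sum was higher, without overlap. The endothelial sum was mostly Pecam1, while Cdh5 and Kdr were not called, and the neutrophil sum was mostly S100a8 and S100a9. Within the vehicle group Sardh lay between 1.45 and 2.26 CPM while the epithelial sum lay between 309 and 680 CPM. The cell source of Sardh was not tested.

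**Figure D5:**
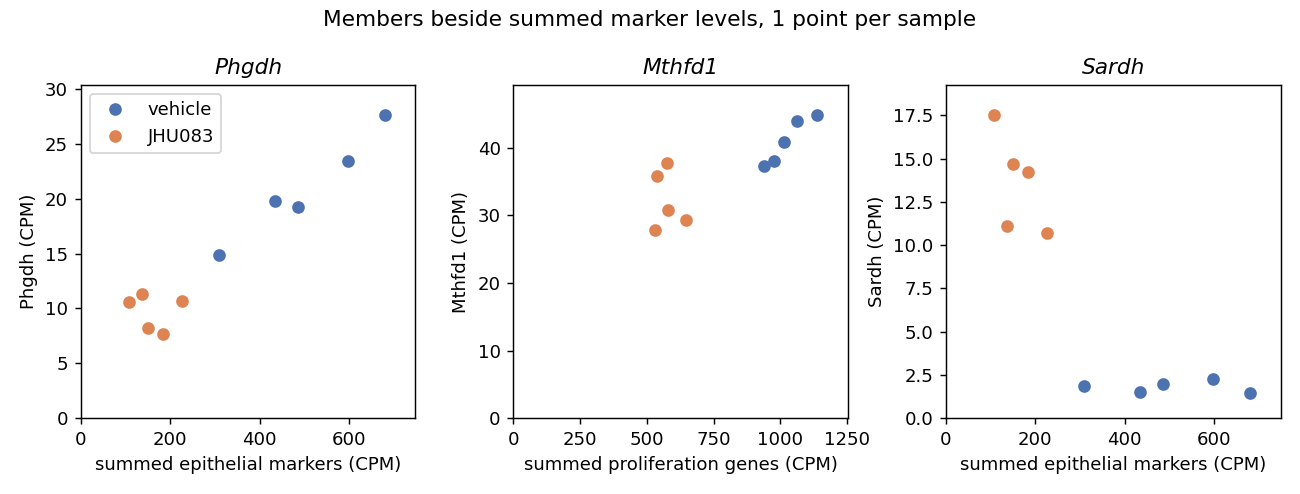
CPM of Phgdh and Sardh against the summed CPM of epithelial markers, and CPM of Mthfd1 against the summed CPM of proliferation genes, with a point per sample and linear axes from 0. Vehicle samples lie at the higher sums (309 to 680 and 938 to 1139 CPM), where Phgdh and Mthfd1 are high and Sardh is low.

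The values were also taken apart by whether the ribosomal RNA-like loci were listed at 0, which was so in 3 vehicle and 2 JHU083 samples. The log2 fold change in samples with these loci at 0, and then in the others, was -1.13 and -1.14 for Phgdh, -0.96 and -1.34 for Psat1, -0.76 and -0.98 for Shmt2 and -0.95 and -0.96 for Mthfd1l, and these 4 passed the test in both subsets. Shmt1 was at -0.57 (edgeR adjusted p = 0.0778) and -0.71 (edgeR adjusted p = 0.0106), and Psph at -0.25 (edgeR adjusted p = 0.57) and -0.58 (edgeR adjusted p = 0.043). Mthfd1 was at -0.29 and -0.39 and passed in neither subset (edgeR adjusted p = 0.272 and 0.0721). Sardh was at 3.18 and 2.67. Among the other one-carbon genes, Aldh1l1 at -0.52 did not pass where these loci were at 0 (edgeR adjusted p = 0.0511), and Pdpr at 0.57 passed in neither subset (edgeR adjusted p = 0.149 and 0.0894).

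The 5 tested loci whose pattern was most like that of Sardh are given as a description, since the choice fixes their low vehicle and high treated levels. Likeness was the root mean square difference, over the 10 samples, between log2 CPM values centred on each gene's mean. Fbp1, the gluconeogenic fructose-bisphosphatase, was nearest at 0.28 and went from 1.25 ± 0.185 to 7.52 ± 1.3 CPM (SD, n = 5 each). Camk2n1, an inhibitor of calcium/calmodulin-dependent kinase II, was at 0.31 (5.9 ± 0.933 and 39.6 ± 5.85 CPM, SD, n = 5 each), and Angptl7, a secreted angiopoietin-like protein, at 0.38 (2.39 ± 0.832 and 15.9 ± 3.25 CPM). Sult1a1, a sulfotransferase, was at 0.4 (1.44 ± 0.389 and 10.7 ± 2.24 CPM), and C4a, a complement component with a near-identical copy that makes its count uncertain, at 0.44 (4.91 ± 0.598 and 22.7 ± 4.27 CPM). Among the other members that passed the filter, the nearest was at 1.55. Aldh1l2, below the filter, was not compared.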

How the data were processed

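Polyadenylated RNA from 10 sorted macrophage samples was sequenced, 5 vehicle and 5 JHU083, grouped by the treatment in the labels. Per the submitters' processing notes the tools were bcl2fastq 2.17.1.14, FastQC 0.11.2 and TopHat2 2.1.1 with genome build GRCm38; the counting program and annotation are not given in the sources used here. The labels' protocols name a library kit that does not mark strand, so overlapping genes may share reads.

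The authors deposited for each locus a column headed as raw counts, here treated as estimated counts since its values are not whole, and a column of FPKM, so named from the values. These estimated counts were whole multiples (within 0.02) of a step per sample, 0.888 to 1.1697, for 99.15 to 99.39% of positive values, and were divided by it and rounded to give fragments. Loci were filtered with filterByExpr, leaving 12501, scaled with TMM and compared with the edgeR 4.0.16 quasi-likelihood F-test in R 4.3.3, with no covariate and Benjamini-Hochberg adjustment over all loci at 0.05. CPM uses the TMM-scaled totals. FPKM was used for levels between genes, and limma 3.58.1 on log2(FPKM + 0.1) as an alternative. Other alternatives were DESeq2 1.42.0, limma-voom, other scalings and filters, the scaled counts, the replicate number as a block, subsets of samples and leaving out each sample. Scripts were tested on simulated data. Python 3.11.15 was used for the rest.

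The members and the gene lists were chosen with earlier results of these data known, and a gene of the lists is not reported here. Beside the members, genes of the lists were named by rule where the adjusted p was under 0.05 and the log2 change at least 0.58, at most 4 per list and direction, with Dmgdh, Aldh1l1, Mthfd2l, Pipox and Gnmt, whose roles pair them with a member, and the 5 loci most like Sardh. Every other list gene in the text was named after its values were seen. The interval of Mthfd2 comes from its standard error and includes the spread between samples, whereas that of Aldh1l2 and the detection limits cover counting error only.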

Additional observations from a re-analysis of the deposited data

Results flagged for a closer look

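A sample that stood apart from the other 4 of its group appeared in 2 of 54 groups of values examined, where chance alone gives about 5%, or 2.7. Shmt2 was highest in JHU083 sample 3, at 6.29 log2 CPM, while the other treated samples lay between 5.90 and 5.98, a gap of 0.8 of the range of the group. Myc was lowest in the same sample, at 4.38 log2 CPM against 4.82 to 4.93, also 0.8 of the range. Without that sample the Shmt2 call remained.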

How the results depend on the processing

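Phgdh, Psat1, Shmt2 and Mthfd1l kept direction and call under every alternative run, and no member changed direction. On FPKM with pseudocount 0.1 and 1, Shmt1 was at -0.38 and -0.34 and Aldh1l2 at 0.64 and 0.13, Psph was at -0.4 with pseudocount 1, and 3 other one-carbon genes rose with either. With library size alone Mthfd2 passed at -0.3 and 3 other one-carbon genes rose, Mat2a and Mat2b no longer passing, and the medians of folate uptake (0.02) and of the methionine cycle (0.03) turned to -0.06 and -0.05. Where the ribosomal RNA-like loci were at 0, Psph (-0.25), Shmt1 (-0.57) and Mthfd1 (-0.29) did not pass, 532 loci rose and 586 fell, and 0 other one-carbon genes rose and 3 fell; in the other samples Mthfd1 (-0.39) did not pass, 1274 loci rose and 0 other one-carbon genes did. Both subsets hold fewer samples. Replicate numbers are shared by the groups, but samples with the same number did not deviate together (correlations from -0.61 to -0.18); with the replicate block Psph (-0.42, adjusted p = 0.0829) and Mthfd1 (-0.35, adjusted p = 0.0572) did not pass, nor did Mat2a, Mat2b and Mthfsl, 2 other one-carbon genes rose, and 1612 loci rose and 1757 fell. Other causes were not tested.

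Leaving out each sample gave log2 fold changes of -1.22 to -1.0 for Phgdh, -1.2 to -1.08 for Psat1, -0.52 to -0.33 for Psph, -0.68 to -0.59 for Shmt1, -0.96 to -0.84 for Shmt2, -0.41 to -0.29 for Mthfd1, -1.0 to -0.91 for Mthfd1l, -0.26 to -0.15 for Mthfd2, 1.58 to 1.91 for Aldh1l2 and 2.8 to 3.0 for Sardh. It gave 1823 to 2895 loci higher, 1899 to 2929 lower, and 1 to 7 other one-carbon genes higher and 8 to 9 lower. Few fragments limit the values of Aldh1l2, of Sardh in vehicle samples and of the genes below the filter, such as Gnmt, Dmgdh and Pipox.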

Other observations

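The glycine cleavage system, which also feeds one-carbon units to folate, was unevenly represented. Gcsh, its lipoyl carrier (44.7 ± 3.22 and 43.9 ± 8.77 CPM in vehicle and JHU083 samples, SD, n = 5 each) and Dld, a dehydrogenase that other complexes share (74.5 ± 2.96 and 81.2 ± 4.39 CPM), were well detected and did not pass the test. Gldc, the decarboxylase specific to the system, had 4 to 8 fragments in vehicle and 4 to 11 in JHU083 samples, and Amt had 2 to 13 and 3 to 8, so neither passed the filter on low counts. The serine dehydratase gene Sds had at most 3 fragments in any sample, and Srr, serine racemase, was at 13.0 ± 1.57 and 13.8 ± 0.772 CPM (SD, n = 5 each).

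The glycine transporter Slc6a9 was below the filter, with 3 to 7 fragments in vehicle and 6 to 12 in JHU083 samples. The folate receptor Folr1 had at most 4 fragments in any sample, in contrast to Folr2. Cth, the transsulfuration enzyme that makes cysteine, was at -1.24 ± 0.57 (SE; edgeR adjusted p = 0.104) with 1 to 25 fragments per sample, and Cbs, which acts before it, had at most 5.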
